A study of Drosophila melanogaster with 12 samples.

Results

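Small nucleolar RNAs (snoRNAs) are short noncoding RNAs that work in the nucleolus as ribonucleoprotein particles. Box C/D snoRNAs mostly guide 2′-O-methylation of rRNA and box H/ACA snoRNAs mostly guide pseudouridylation, each by base pairing with the target, while U3, a box C/D RNA, guides no modification and is required for the early cleavages of the pre-rRNA that release 18S rRNA. In flies most snoRNAs are cut out of the introns of host genes, and orphan snoRNAs are those without a known target. The snoRNAs described here are those whose symbol names neither a pseudouridylation guide (snoRNA:Psi) nor a methylation guide (snoRNA:Me). They were 75 of the 287 snoRNA genes in the table of estimated counts and of 17813 genes in all. The members were 3 U3 copies, 3 of the U29 type, 10 other U-named RNAs, 17 orphan box C/D RNAs (Or-CD), 9 orphan box H/ACA RNAs (Or-aca or Or-ACA), 1 CD-named RNA and 32 others, most of them named for a host gene.

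The RNA came from Oregon-R wild type Drosophila melanogaster, as 3 collections of 40 whole wandering third-instar larvae, and carried no mutation or transgene. Each condition had 3 libraries: random-primed input, random-primed depleted, poly(A)-primed input and poly(A)-primed depleted. Depleted RNA had passed through hybridization with biotinylated antisense rRNA probes (Ribo-Pop), capture on streptavidin beads and a bead-based cleanup, and input RNA was used directly. The RNA entering library preparation differed too: rRNA took 96.2% to 97.3% of random-primed input counts and 23.7% to 33.4% after depletion. The paper proposes that such differences may alter the recovery of some RNAs in library preparation. Effects of probes, capture, cleanup and library preparation therefore cannot be told apart, and levels that remained are levels in the libraries.

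Outside rRNA and spike-ins, the random-primed libraries held 428039 to 596423 estimated counts from input and 9037950 to 12422400 from depleted RNA. With poly(A) priming they held 3311440 to 5709120 from input and 2495310 to 4199300 from depleted RNA. Levels are given as counts per 1e6 of these counts (CPM) or per 1000 counts of the 7 synthetic spike-in genes, which had been added before depletion. The larval origin was checked with 10 genes of salivary glands and fat body, each of which had at least 548 counts in every library, while of 5 adult yolk and eggshell genes only Yp3 exceeded 6 counts in any library. Library 3 had the highest sum of the members in every condition. In random-primed RNA it stood at 6381 CPM against 3436 and 3804 in input, and at 3005 against 1882 and 2167 CPM in depleted RNA. With poly(A) priming it stood at 220 against 147 and 190 CPM in input, and at 263 against 144 and 218 CPM in depleted RNA.

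Most members were barely seen. No count was assigned to 16 of the 75 in any library and 55 stayed under 10 counts in every library. In all 3 random-primed libraries, 14 members reached 10 counts in input and 16 in depleted RNA. In the poly(A)-primed libraries 3 and 4 members did so. Detection followed annotated length. Of the 35 members under 100 nt, none reached 10 counts in all 3 libraries of either random-primed condition. Among the 24 members of at least 140 and under 200 nt, 9 did so in depleted RNA, and among the 7 members of 200 nt or longer, 6 did. All U29-type, U14, U27, U31, U49 and U76 RNAs, with lengths of 67 to 88 nt, stayed under 10 counts in every library, with at most 3 counts summed over the U29 type in any library. U14 takes part in 18S rRNA processing in yeast, and its copies in the introns of Uhg2, a noncoding host gene, could not be measured in these libraries. One member, Or-CD11, had no length in the annotation used.

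The counts that were seen came largely from a few RNAs. In the random-primed depleted libraries the 3 U3 copies held 68.6% to 69.7% of the members' counts and snoRNA:Tudor-SN-a, an RNA from an intron of Tudor-SN, a further 17.5% to 18.3%. In random-primed input RNA these shares were 46.5% to 49.0% and 10.0% to 10.9%. The shares of the groups did not overlap.

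Normalized to the spike-ins, the members together stood at 115.2, 115.4 and 146 counts per 1000 spike-in counts in the random-primed input libraries and at 49.7, 58.8 and 63.1 after depletion. The depleted libraries thus held 45.6% ± 5.5 of the input mean (SD, n = 3), and the conditions did not overlap (p = 0.1 in an exact permutation test, two-sided like all those below, and 0.1 is the lowest p that 3 against 3 can reach). This sum hid unequal parts. The U3 copies remained at 66.6% ± 8.6 and Tudor-SN-a at 77.9% ± 7.6, whereas the other 71 members remained at 13.9% ± 1.5 (SD, n = 3 each, exact p = 0.1 for each). On the same scale the pseudouridylation guides remained at 26.3% ± 3.8, the methylation guides at 5.94% ± 1.04, the spliceosomal U snRNA genes at 24.3% ± 3.2 and the protein-coding genes at 89.3% ± 19.7 (SD, n = 3 each). Without U3:54Aa and U3:54Ab, whose estimated counts were identical, all members remained at 29.9%. The planned sets were all members and the U3 copies, and setting Tudor-SN-a apart was not planned. Tudor-SN-a held 13.1 counts per 1000 spike-in counts in input and 10.2 in depleted RNA, against 52.9 and 7.38 for the 71. The value of 13.9% is therefore not that of all members other than U3.

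**Figure D1:**
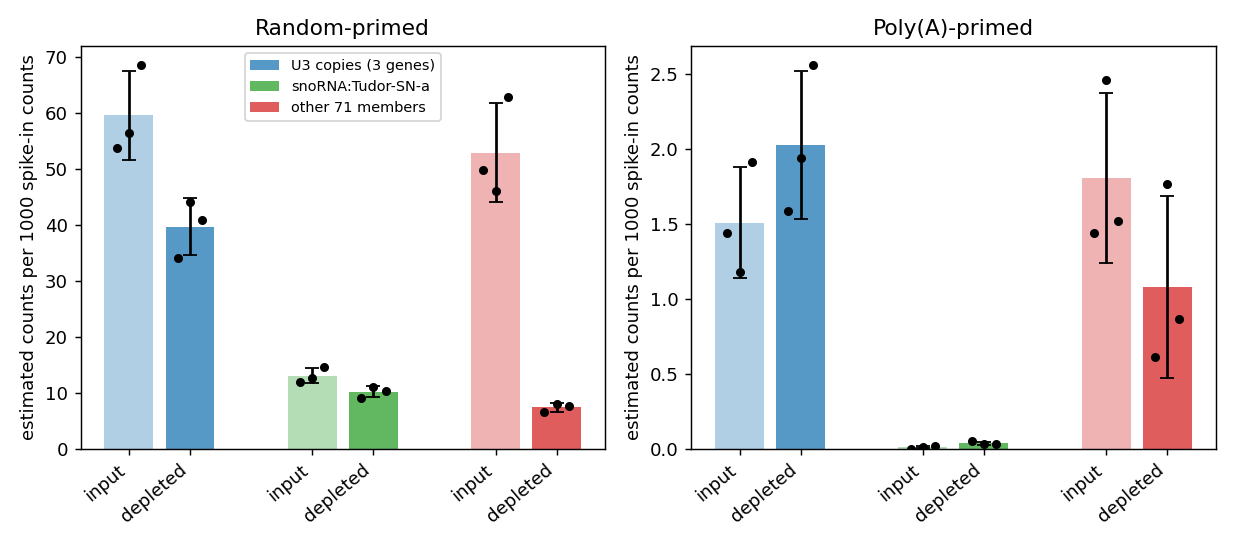
Estimated counts per 1000 spike-in counts for the U3 copies, Tudor-SN-a and the other 71 members in random-primed (left) and poly(A)-primed (right) libraries. Bars are means, error bars SD and points the 3 libraries of each condition, pale for input and dark for depleted. In the random-primed libraries the other 71 members fell to 13.9% of input and the U3 copies to 66.6%.

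The ratio of U3 to the 71 members within a library does not need the spike-ins. It ranged from 1.08 to 1.23 in input and from 5.23 to 5.48 in depleted RNA, a 4.75-fold difference of the means with no overlap (exact permutation p = 0.1). Against the pseudouridylation guides, U3 rose from 0.272 ± 0.018 to 0.687 ± 0.023 counts per guide count (SD, n = 3), while the 71 members fell from 0.240 ± 0.002 to 0.128 ± 0.006 (SD, n = 3, exact p = 0.1 for each). The 71 leave out Tudor-SN-a, which remained at 77.9% of input against the spike-ins, where the guides remained at 26.3%. Setting Tudor-SN-a apart was not planned, and leaving out a member that remained so high lowers the level of the rest after depletion. Both differences were thus partly set by that choice, and their p-values do not test the members other than U3. Ratios with Tudor-SN-a included were not computed, so both ratios to the 71 and their changes hold for these 71 only.

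Both 54A copies of U3 had the highest level per length among the members in random-primed depleted RNA. U3:54Aa (2R, 17143521 to 17143730, minus strand) and U3:54Ab (2R, 17145617 to 17145826, plus strand) are 210 nt genes on opposite strands, and U3:9B (X, 10348125 to 10348337, plus strand) is 213 nt (BDGP6). None lies in a gene on its own strand. The estimated counts of both 54A copies were identical in all 12 libraries, so these estimates do not tell the copies apart and each carries an equal share. Each of these copies was estimated at 3555 ± 897 CPM per kb and U3:9B at 646 ± 173 CPM per kb (SD, n = 3, depleted). U3:9B gave 6.15% to 7.09% of the U3 counts in random-primed input and 7.81% to 8.87% in depleted RNA.

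U3:54Aa stood at 822, 791 and 1404 CPM in random-primed input and at 588, 697 and 955 CPM in depleted RNA. The ranges overlapped, with the high input value in library 3. The log2 fold change was -0.47 (SE 0.26, adjusted p = 0.56, edgeR quasi-likelihood test with Benjamini-Hochberg adjustment), the same for U3:54Ab. With the library number as a block, which takes equal numbers as the same RNA sample, both copies were called lower (-0.46, SE 0.064, adjusted p = 0.00012). Whether the numbers mark shared samples was not settled, so the call of these copies depends on the pairing. Per 1000 spike-in counts the copy stood at 24.9, 26.5 and 32.2 in input and 15.5, 20.3 and 18.7 after depletion, which did not overlap (65.2% ± 8.7 of input, exact p = 0.1). U3:9B stood at 126, 104 and 187 CPM in input and 114, 118 and 180 CPM in depleted RNA, which overlapped throughout. Its log2 fold change was -0.04 (SE 0.26, adjusted p = 0.98). Leaving out input library 3 gave 0.24, and leaving out depleted library 3 gave -0.32. It remained at 86.3% ± 7.0 of input against the spike-ins (exact p = 0.2). A difference in recovery between the 54A copies and U3:9B was not tested.

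Tudor-SN-a (3L, 259970 to 260280, minus strand), which at 311 nt is the longest detected member apart from Or-ACA9, stood at 394, 376 and 640 CPM in input and 345, 380 and 529 CPM in depleted RNA. The groups overlapped, and the log2 fold change of -0.21 (SE 0.24, adjusted p = 0.82, edgeR) became 0.10 without input library 3 and -0.47 without depleted library 3. Per length it was second to the 54A copies, at 1343 ± 314 CPM per kb in depleted RNA (SD, n = 3). In the rest of the introns of its host the density was far lower: 1463 counts per 100 nt fell on Tudor-SN-a and 6.01 per 100 nt on the other intronic bases of Tudor-SN.

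Across genes, the random-primed depleted against input comparison tested 10893 genes, of which 2.28% were called lower and 0.0643% higher at an adjusted p under 0.05. Of the 75 members, 20 passed the filter on low counts, 15 were called lower and none was called higher by edgeR, or by any of the other fits run, DESeq2 included, and all 20 fold changes were below 0. Of the 20, 7 passed the filter through the input libraries only and so had to be lower, and of the 13 that passed in both conditions 8 were called lower. The median log2 fold change was -2.30 over these 13 and -3.08 over the 20. Over all genes it was 0.03 for the 8921 that passed in both conditions, of which 209 were called lower, and 0.06 for all those tested. The members not called were the 3 U3 copies, Tudor-SN-a and snoRNA:2R:9445410, named by an older coordinate. With the library number as a block 17 members were called lower, both 54A copies of U3 among them, against 5.43% of all genes called lower and 2.44% higher. Without depleted library 1 or 2 only 14 members could be tested, and 9 were called lower. Among the pseudouridylation guides 68 passed the filter, 52 were called lower and the median was -2.82, while 46 passed it in both conditions, of which 34 were called lower with a median of -2.40. No methylation guide passed it.

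**Figure D2:**
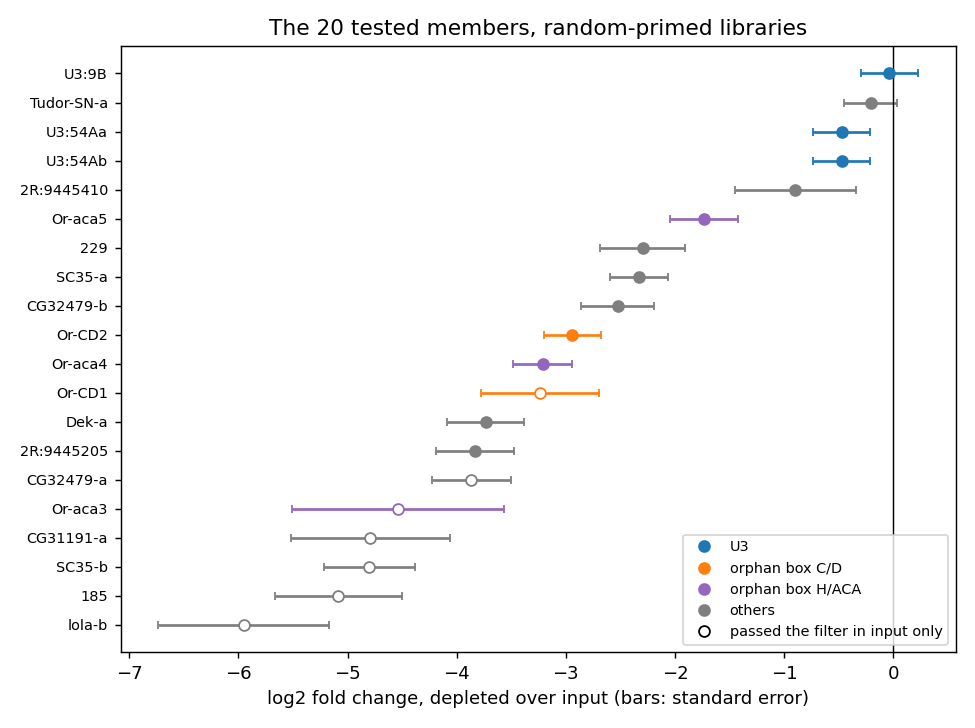
Log2 fold change of depleted over input RNA for the 20 tested members in the random-primed libraries, with standard errors from edgeR. Open points passed the filter in input only. U3:9B, Tudor-SN-a and both 54A copies lie between -0.47 and -0.04, and lola-b is lowest at -5.95.

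The orphan box H/ACA RNAs Or-aca4 and Or-aca5 took the most counts after U3 and Tudor-SN-a in random-primed depleted RNA. Or-aca5, from an intron of the noncoding host gene Uhg4, stood at 336, 270 and 589 CPM in input and at 99.7, 108 and 161 CPM in depleted RNA, with no overlap. Its log2 fold change was -1.73 (SE 0.31, adjusted p = 0.016), and the call was lost without depleted library 1 (adjusted p = 0.051) or 2 (adjusted p = 0.087) and without the filter (adjusted p = 0.12). Or-aca4, which lies in no gene on its strand, stood at 428, 359 and 652 CPM in input and at 43.5, 47.6 and 68.5 CPM in depleted RNA (log2 fold change -3.21, SE 0.27, adjusted p = 5.5e-05). Its depleted libraries lay well under its input libraries, and it remained at 9.70% ± 0.96 of input against the spike-ins (SD, n = 3). Or-aca3, from an intron of the ribosomal protein gene RpL4, had at most 8.1 counts in a library. Or-aca3 passed the filter in input only and so had to be lower. Its call (log2 fold change -4.54, adjusted p = 0.028) was lost without input library 1 (adjusted p = 0.068) or 3 (adjusted p = 0.27).

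Of the 17 orphan box C/D RNAs only Or-CD1 and Or-CD2 could be tested in the random-primed libraries. Or-CD2, a second RNA from the introns of Uhg4, stood at 302, 267 and 524 CPM in input and at 43.4, 45.0 and 57.7 CPM in depleted RNA. Every depleted library was below every input library (log2 fold change -2.94, SE 0.26, adjusted p = 8.1e-05). Or-CD1, which the later annotation names as a methylation guide of 18S rRNA, passed the filter in input only and had a log2 fold change of -3.24 (SE 0.54, adjusted p = 0.0057).

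Among the members named for host genes, snoRNA:Dek-a stood at 203, 144 and 357 CPM in input and at 15.0, 15.7 and 23.6 CPM in depleted RNA (log2 fold change -3.73, SE 0.35, adjusted p = 0.00036). SC35-a, from an intron of the splicing factor gene SC35, stood at 124, 98.5 and 192 CPM in input and at 21.8, 27.2 and 35.0 CPM after depletion (log2 fold change -2.33, SE 0.27, adjusted p = 0.00043). Neither overlapped between conditions. SC35-b, CG31191-a, lola-b and snoRNA:185 had lower values, with log2 fold changes from -5.95 to -4.79. Of these, snoRNA:185 is not named for a host and lies in no gene on its strand. All 4 passed the filter in input only and had at most 22 counts in any library.

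The fold changes were also set beside annotated length. Of the 6 tested members of 200 nt or more, 4 were not called, with CG32479-a (226 nt, log2 fold change -3.86) and CG32479-b (221 nt, -2.52) as the exceptions. Of the 12 tested members of at least 140 and under 200 nt, 11 were called lower, with values from -5.95 to -0.90. These tallies include members that passed the filter through input only. Of those that passed in both conditions, 5 were of 200 nt or more, with 1 called lower, and 8 of at least 140 and under 200 nt, with 7 called lower. Across the 20 tested members Pearson's r between log2 length and log2 fold change was 0.53 and Spearman's rho 0.39. Without U3, over 17 members, they were 0.44 and 0.15, and over the 68 tested guides 0.14 and 0.03. Over the 13 members that passed in both conditions they were 0.62 and 0.44, and over the 10 of these that are not U3 0.51 and 0.01, so the rank order rested on the U3 copies. These genes share libraries, depth and in part hosts, and a part of length in the result was not tested.

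**Figure D3:**
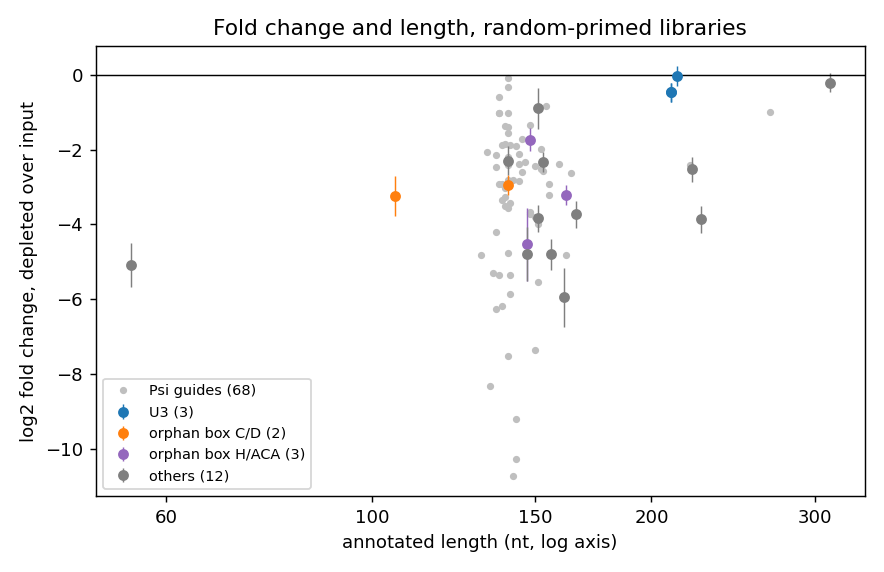
Log2 fold change of depleted over input RNA in the random-primed libraries against annotated length (log axis) for the 20 tested members, with standard errors, and for 68 pseudouridylation guides in grey. The U3 copies at 210 to 213 nt and Tudor-SN-a at 311 nt lie near 0, CG32479-a and CG32479-b at 226 and 221 nt do not.

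Members of nearly equal length from the same host or the same site differed in recovery. There were 4 such pairs among the tested members, besides the 54A copies, whose estimated counts were identical. SC35-a and SC35-b (153 and 156 nt, 74 bases apart) had a count ratio of 3.73 to 4.66 in input and 18.7 to 27.9 in depleted RNA. Or-CD2 to Or-aca5 (140 and 148 nt) went from 0.890 to 0.989 in input to 0.359 to 0.436 in depleted RNA. CG32479-a to CG32479-b went from 0.833 to 1.25 down to 0.395 to 0.436. The neighbours 2R:9445205 and 2R:9445410, both 151 nt and 54 bases apart, exchanged order: their ratio was 2.83 to 12 in input and 0.685 to 0.767 in depleted RNA, on 2 to 6 counts of 2R:9445410 per input library. Input and depleted libraries did not overlap in any of the 4 pairs (exact permutation p = 0.1 each, and 0.1 after adjustment over the pairs). SC35-b and CG32479-a passed the filter in input only, so the direction of the ratios they enter was partly set beforehand. How often pairs of other genes differ in this way was not computed. Division of reads between similar sequences could not be checked.

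**Figure D4:**
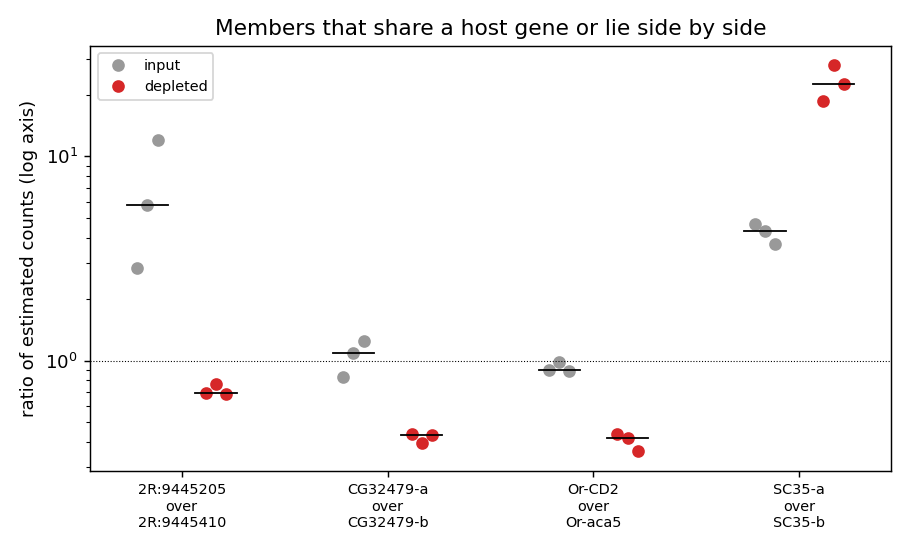
Ratio of estimated counts (log axis) between members that share a host gene or lie side by side, in the 3 input (grey) and 3 depleted (red) random-primed libraries. Black lines are medians. The SC35-a to SC35-b ratio rose from 3.73 to 4.66 in input to at least 18.7 in depleted RNA, and the other 3 ratios fell. SC35-b and CG32479-a passed the filter in input only.

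Host introns were also in the index to which reads were assigned, so counts of an intronic member may include unspliced host RNA. In random-primed depleted RNA, 10 of the 51 members in a same-strand intron had more than 10 times the density of counts of the other intronic bases of their host, 4 had 1 to 10 times and 37 had no more than the host introns. These 37 include 18 members without any count in depleted RNA. Tudor-SN-a stood 244-fold over its host introns, Or-aca5 63.6-fold and snoRNA:229, from an intron of fibrillarin (Fib), 49.9-fold. The value of snoRNA:229 rests on a mean of 4.60 host intronic counts. SC35-b stood at 1.40 times, SC35-a at 32.6 times. In random-primed input the host introns held few counts, with a median of 2.63 per library. There 12 of the 51 members stood more than 10 times over their host introns, 16 stood 1 to 10 times over, 19 had no more than the host introns and 4 had hosts without an intronic count. In input 17 of the 51 had no count themselves. Tudor-SN-a stood 238-fold over its host introns in input, SC35-a 281-fold and SC35-b 66.3-fold, the SC35 values on a mean of 2.11 host intronic counts. Among the hosts, SC35 itself stood at 53.8 ± 12.1 CPM in input and 68.0 ± 6.5 CPM in depleted RNA, and Dek at 117 ± 6.6 and 104 ± 12.7 CPM (SD, n = 3). The host genes' spliced and intronic counts are pooled in these values.

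In the poly(A)-primed libraries, where cDNA starts at poly(A) stretches, the members made up 0.0147% to 0.0220% of counts outside rRNA and spike-ins in input and 0.0144% to 0.0263% in depleted RNA. The test covered 9823 genes, of which 3.62% were called lower and 0.947% higher, and 4 members: both 54A copies, U3:9B and Or-CD15. Without a block edgeR called none of the 4 in either direction. With the library number as a block it called all 4, the 3 U3 copies higher and Or-CD15 lower, against 7.81% of all genes called higher and 11.3% lower, so these calls too depend on whether equal numbers mark the same RNA sample. With spike-in scaling 134 genes were called lower and 7 higher, against 356 and 93, and no member. At an unadjusted p under 0.05 (edgeR) there was 1 member, U3:9B, and DESeq2 called none. U3:54Aa stood at 35.7, 29.3 and 58.4 CPM in input and at 48.2, 53.8 and 91.9 CPM in depleted RNA, which overlapped (log2 fold change 0.46, SE 0.32, adjusted p = 0.46, and with the block 0.46, SE 0.12, adjusted p = 0.0066). U3:9B stood at 1.85, 2.64 and 4.84 CPM in input and at 5.48, 5.72 and 10.9 CPM in depleted RNA, without overlap, on 8 to 27.1 counts per library (log2 fold change 1.04, SE 0.40, adjusted p = 0.17, and with the block 1.05, SE 0.32, adjusted p = 0.018).

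Against the spike-ins all members remained at 94.5% ± 23.9 and the U3 copies at 134% ± 32.7 of input in the poly(A)-primed libraries (SD, n = 3, exact p = 0.9 and 0.2). The U3 value lay above input there and below it in the random-primed libraries. The sum over all members, like the shares above, includes Or-CD15, on which HTSeq counted no read. Per poly(A)-primed input library Or-CD15 held 285 to 694 estimated counts, and all members together 634 to 1086. The level without Or-CD15 is given in the closing section. In a single fit over the 12 libraries, chosen after seeing the data, the depletion effect of U3:54Aa was 0.81 log2 units lower with random priming (SE 0.49, adjusted p = 0.55), and that of U3:9B 0.95 lower (SE 0.53, adjusted p = 0.51), so a difference between primings was not shown.

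Or-CD15 (97 nt), an orphan box C/D RNA, was seen with poly(A) priming alone, at 65.8, 122 and 87.8 CPM in input and 33.7, 97.3 and 56.7 CPM in depleted RNA, and at 0 counts in all 6 random-primed libraries. It overlaps, on the same strand, an exon of RpL23A, a ribosomal protein gene, and of Uhg7. RpL23A had 6171 to 12276 estimated counts in the poly(A)-primed input libraries. HTSeq, which leaves out reads on more than 1 gene, gave Or-CD15 no read in any of the 6 poly(A)-primed libraries. Its log2 fold change was -0.77 (SE 0.39, adjusted p = 0.33), and -0.81 with the block (SE 0.12, adjusted p = 3.33e-06). HTSeq counted 0 to 5 uniquely mapping reads per library on either 54A copy, against 154.5 to 229.4 estimated counts, and 8 to 26 on U3:9B, against 8 to 27.1.

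After depletion, random-primed and poly(A)-primed libraries were also compared directly. Priming, kit and number of PCR cycles cannot be told apart in this comparison. Of 11467 genes tested, 35.1% were called higher and 33% lower with random priming. Of the members, 17 were tested, 14 were called higher, 2 lower, and Or-CD1 was not called. The median log2 difference over the 17 was 5.38, and 0.01 over all genes. When scaled by spike-ins, the median of all genes moved to 1.27, with 7286 genes called higher and 813 lower against 4028 and 3787, while 15 members were higher and 2 lower. Only 4 members, U3 and Tudor-SN-a, passed the filter in both kinds of library, and the other 13 entered the test through 1 kind of library only.

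U3:54Aa was higher by 3.01 log2 units with random priming (SE 0.28, adjusted p = 3.7e-06), U3:9B by 3.76 (SE 0.29, adjusted p = 1.1e-06) and Tudor-SN-a by 6.86 (SE 0.29, adjusted p = 8.5e-08). Or-CD2 was listed at 0 estimated counts in every poly(A)-primed library, but HTSeq counted 13, 9 and 4 uniquely mapping reads on it in the depleted and 4, 18 and 6 in the input libraries, so no fold is given. SC35-a had 0 counts in the poly(A)-primed depleted libraries by both methods, and set against a floor of 3 counts over the group it was at least 95.9-fold higher with random priming. Or-CD15 was called lower with random priming on estimated counts alone, with no HTSeq read to set beside them. Or-ACA9, at 511 nt the longest member, was lower by 3.28 log2 units (SE 0.69, adjusted p = 0.0013), on 0 to 7.7 counts per library.

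**Figure D5:**
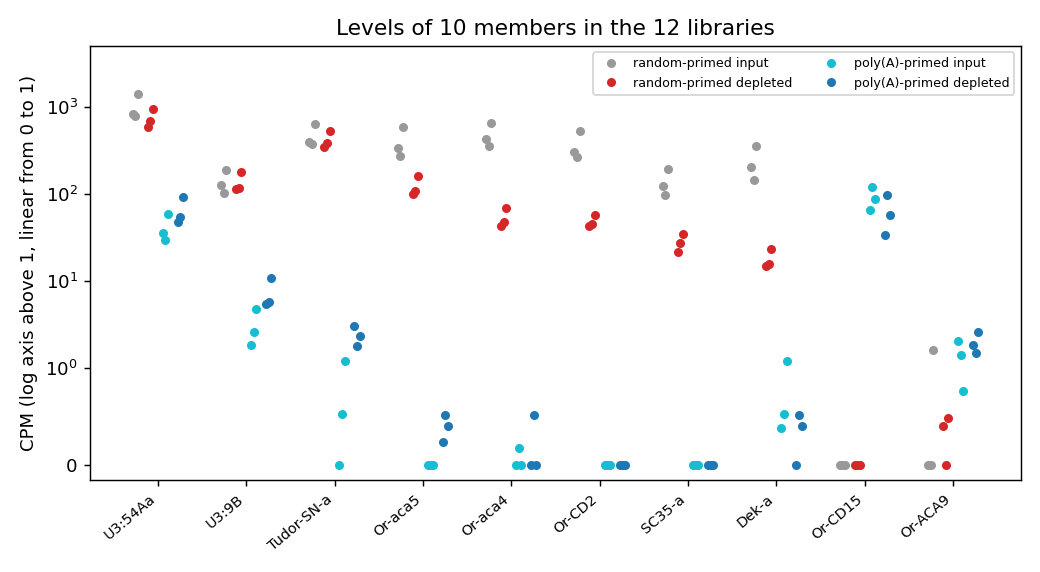
Levels of 10 members in the 12 libraries as CPM (log axis above 1, linear from 0 to 1), 3 points per condition. U3:54Aa stands at 588 CPM or more in each random-primed library and at 91.9 CPM or less in each poly(A)-primed library, while Or-CD15 has estimated counts in the poly(A)-primed libraries alone.

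The proteins of snoRNA particles were measured from mRNA in the same libraries. Of 18 listed genes 16 could be tested. The box C/D core (Fib, which carries the methyltransferase activity, nop5, Nop56 and hoip) had log2 fold changes of -0.16 to 0.50 in random-primed depleted against input RNA. The box H/ACA core, with the pseudouridine synthase Nop60B, had -0.47 to -0.01 and the U3 particle genes U3-55K, CG4866 and CG11920 had -0.11 to 0.46, none of them called. Nopp140, a nucleolar chaperone of snoRNA particles, was called lower (-1.04, SE 0.22, adjusted p = 0.027, edgeR), alone among the 16 genes. Of all genes tested 2.28% were called lower and 0.0643% higher, and 1 call among 16 is not read as a result about these proteins. In the poly(A)-primed libraries none of the 16 was called by edgeR, with values from -0.96 to 0.41, against 3.62% of all genes called lower and 0.947% higher.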

How the data were processed

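The authors trimmed adapters, assigned reads in a stranded mode with Kallisto to an index of Ensembl release 99 transcripts, introns and spike-ins, and deposited estimated counts per gene for the 12 libraries, not normalized. For the 6 poly(A)-primed libraries they also deposited counts of uniquely mapping reads per gene (STAR, HTSeq). A further deposited table, the authors' own comparison with fold changes and p-values, was not used. Libraries were grouped by treatment and library type. The 3 collections of larvae are separate samples.

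Estimated counts were rounded to whole numbers. Spike-ins and the 138 rRNA genes were left out of library sizes and fits. Genes passing the default filter of edgeR 4.0.16 (TMM, robust quasi-likelihood, R 4.3.3) were tested, with Benjamini-Hochberg adjustment over all of them and a call at an adjusted p under 0.05. All adjusted p-values in the text come from edgeR unless another tool is named. The fits were tested on simulated data. Spike-in normalized levels and count ratios were compared over 3 against 3 libraries with two-sided exact permutation tests (scipy). Alternatives were DESeq2 1.42.0, other scaling, no filter, rRNA kept, a stricter threshold, a replicate block, HTSeq counts and each library left out. Per the methods each RNA sample gave input and depleted libraries, but it is not stated that equal numbers mark the same sample. Deviations of equally numbered input and depleted libraries correlated at 0.28, 0.58 and 0.67 with random priming over genes with at least 10 counts in each library, and at 0.09, 0.31 and 0.39 over tested genes. With poly(A) priming they correlated at 0.07, 0.36 and 0.65, and at 0.04, 0.32 and 0.57. A value over 0.1 in every pair was required to take the numbers as pairs, so the random-primed libraries met this over the first set of genes and not over the second. The set of genes had not been fixed beforehand. The first was examined first, and the second was added when the calls with the block were already known. The pairing is therefore treated as unsettled, and values with the block are given wherever the call of a member differed. Depleted random-primed and poly(A)-primed libraries of the same number deviated together (correlations of 0.22, 0.50 and 0.58 over tested genes, from RNA samples the methods describe as shared). In that comparison the block left the members at 14 called higher and 2 lower. Over all genes it called 4415 higher and 4304 lower, against 4028 and 3787 without it.

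Coordinates, lengths and hosts came from Ensembl release 115 of BDGP6, in which 74 of the 75 members were found. Named members were every U3 copy, the 12 with the highest mean CPM in random-primed depleted RNA, and in each comparison the 5 largest decreases and increases among called members whose groups did not overlap. Orphan H/ACA symbols were matched in either letter case. Mpp10 and Spag were not found by symbol. Or-CD1, CG32479-a and 2R:9445205 were named after their values were seen. Setting Tudor-SN-a apart from the sum of the other members was not planned. Members and lists were chosen with earlier results of these data known. Member sequences were not used here. Counting error was not given apart from the spread over libraries, since PCR copies are not independent molecules.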

Additional observations from a re-analysis of the deposited data

How the results depend on the processing

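Under the other settings run, members called lower in random-primed depleted RNA numbered 11 to 17, and 9 to 14 with 1 library left out, when fewer genes could be tested without a depleted library. In the poly(A)-primed libraries, no filter gave 1 member lower. Whether input and depleted libraries of equal number are pairs was not settled: with random priming the lowest correlation was 0.28 over genes with at least 10 counts in each library and 0.09 over tested genes, and with poly(A) priming 0.07 and 0.04. Not every library correlated best with its own number in either set of genes, and the choice between the sets was made with the block's calls known. With the replicate block 17 members were lower after random priming, both 54A copies among them (log2 fold change -0.46, adjusted p = 0.00012, edgeR). With the block in the poly(A)-primed libraries 3 were higher, the U3 copies, and 1 lower, Or-CD15. With the block, spike-in normalized levels were 46.0% for all members and 67.0% for U3 with random priming, and 93.5% for all members with poly(A) priming. In the comparison of primings 2 members were lower with random priming, and 1 without any of the random-primed depleted libraries, where Or-ACA9 was not tested. Without the most abundant member, spike-in normalized levels were 29.9% with random priming (U3:54A copies left out) and 130.5% with poly(A) priming (Or-CD15 left out). The fold change of U3:9B in random-primed libraries was 0.011 without the filter and -0.32 to 0.24 with a library left out, and that of Tudor-SN-a -0.47 to 0.10. Neither was called under these settings, and the cause was not tested. Members under 10 counts in every library, the majority, were too low to be measured well, and 16 of the 75 had no count in any library. Among those under 10 counts, lola-b, CG31191-a and Or-aca3 were tested through their input counts only, so their calls rest on few counts. Whether depth, length or the assignment of reads limited the members under 10 counts was not tested.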
